A study of Mus musculus with 6 samples.

Results

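The genes described here copy the genome: 41 genes of DNA replication licensing and of the replication fork, out of 22416 genes in a table of ribosome footprints from mouse oocytes. They were chosen by known role, with earlier results of these data known, and matched by gene symbol, and all 41 had an entry. Shares of the members set beside shares of all tested genes are therefore a description and not a test. Ribo-lite profiles ribosomes in small cell numbers and sequences the mRNA fragments that ribosomes shield from nuclease. There were 3 groups of 2 libraries, each from 500 pooled wild-type oocytes: WT_FGO (fully grown oocytes, still at the germinal vesicle stage), WT_MII (control oocytes at metaphase II) and Treat_MII (treated oocytes at metaphase II). In the study's methods the donors were C57BL/6 females, 4 weeks old, given 5 IU of the gonadotropin PMSG 44 h before collection. All metaphase II oocytes were matured in culture. The labels of Treat_MII say only that these oocytes were treated, and the study's methods name BYBX, a small molecule that binds RNA G-quadruplexes, with the solvent DMSO for the controls. The labels do not say whether the libraries of a group came from separate collections, so the p-values below measure only the spread between these libraries, which may be technical.

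Replication has steps that are separated in time. Before S phase, the origin recognition complex (ORC) with CDC6 and CDT1 loads the MCM helicase onto DNA, which is called licensing, and geminin blocks CDT1 once licensing must stop. In S phase the kinase CDC7-DBF4 phosphorylates the loaded MCM ring, CDC45 and the GINS complex join it, and polymerases, the sliding clamp PCNA, its loader RFC and the single-strand binding complex RPA follow at the fork. An oocyte passes through both meiotic divisions with no S phase between them and replicates its DNA only after fertilization. It makes hardly any new RNA while it matures, so its protein output depends on which stored mRNAs remain and which of them carry ribosomes. The study reports that maternal mRNA is degraded between the germinal vesicle stage and metaphase II. Footprints were not set against mRNA levels here. A change in footprints may therefore be one of mRNA amount, of ribosome loading or of both. Some stored mRNAs carry a cytoplasmic polyadenylation element near the 3′ end, a U-rich word bound by CPEB proteins, through which their poly(A) tail is lengthened during maturation.

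The deposited values are FPKM, which scale the reads of a gene to its coding length and to the reads of its library, so they are relative levels with no spike-in: more or fewer footprints per oocyte in total could not be seen. Levels of different genes are compared here only on this scale. Whole reads could be recovered for all 41 members, with library totals from 94309 (WT_FGO_1) to 331304 (Treat_MII_1). The members drew 6 to 812 reads over the 6 libraries, with a median of 76, against a median of 13 for the tested genes. A single read in 1 kb of coding sequence was worth 9.32 to 10.6 FPKM in WT_FGO and 3.02 to 6.06 FPKM in the metaphase II libraries. All 10 oocyte markers were above 0 in every library. The 14 granulosa and cumulus markers summed to 2206 FPKM in WT_FGO_2, against 224 in WT_FGO_1 and 115 to 138 in the metaphase II libraries. In WT_FGO_2, 11 of the 14 were above 0 and Has2, Ptx3 and Nr5a2 were at 0. Inha (747 FPKM) and Gja1 (740) held the largest values there, while Cyp19a1 was lower (24.7) than in WT_FGO_1 (35.1). In the other libraries 5 to 9 were above 0. Of the members, 25 were higher in WT_FGO_2 than in WT_FGO_1 and 14 were lower (61.0% and 34.1%, against 45.6% and 38.1% of tested genes). The 25 include Orc6, Cdt1, Gmnn, Mcm10, Gins4, Pcna, Rpa1, Rrm1 and Rrm2. Among the 14 are Gins2, Pola2 and Pold1. The part of these follicle-cell transcripts in the results below was not tested, and values without WT_FGO_2 are given where the calls rest on it.

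The ends of several mRNAs are shown first, because 5 of the 7 members called at maturation (Orc1, Orc6, Mcm2, Mcm4 and Cdc45) carry the polyadenylation element there. The other called members, Cdc7 and Rpa1, do not carry it and are not printed. In the transcript models of GENCODE mouse release 21, the letters TTTTAT or TTTTAAT (U in the RNA; the words can overlap each other, and only the sense strand was read) lay in the last 100 bases of 17 of the 40 members with such a window (42.5%), against 17.7% of 18764 genes of the table. Pold1 was left out because its annotated 3′-UTR is shorter. The windows below are 30 bases each, 5′ to 3′ in the sense of the mRNA, with the element in capitals, at GRCm38 positions chr4:108614804-108614833 (Orc1, plus strand), chr8:85308013-85308042 (Orc6, plus), chr6:88883483-88883512 (Mcm2, minus), chr16:15623961-15623990 (Mcm4, minus), chr16:18780447-18780476 (Cdc45, minus) and chr13:24751911-24751940 (Gmnn, minus). Gmnn and the last one, Mcm7 at chr5:138164606-138164635 (minus), carry the element and were not called at maturation; Gmnn is shown because its window holds the element in both spellings.
Orc1: gatacaaagtaaaattgaTTTTATagaaaa
Orc6: taaaTTTTATttcactaaatgttatatagc
Mcm2: tattTTTTAATagatttgaataaaacctaa
Mcm4: taatTTTTATagatccttagattattagtt
Cdc45: TTTTAATaaaatgtttgatgTTTTATcccc
Gmnn: TTTTAATccgTTTTATgtaaatagcatttt
Mcm7: acttTTTTATtctgccaataaagtgttttg
The signal for adding the poly(A) tail, AATAAA or ATTAAA, lay in the last 100 bases of 32 of the 40 members (80%, against 77.7% of genes). Orc1 had no such signal there. In Cdc45 the last element starts 10 bases from the end, after the signal at 26, and TTTTAAT overlaps that signal. A match of letters is a description and not a mapped binding site.

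Between the germinal vesicle stage and metaphase II, footprints rose on 6 of the 41 members and fell on 1. Orc1 and Orc6 of the origin recognition complex, Mcm2 and Mcm4 of the helicase, Cdc45 of the active helicase and the kinase gene Cdc7 rose, and Rpa1, the large subunit of the single-strand binding complex, fell. These calls are at an adjusted p under 0.05 from limma on log2(FPKM + 1), adjusted over 15127 tested genes, and this log scale understates the change of low genes. The 6 are 14.6% of the members, against 3.67% of tested genes called higher, and the 1 is 2.44%, against 3.09% called lower. The members had more reads than most genes, and this background moves with the reads required. Among genes with at least 60 reads, fitted alone, 10 of 24 members were called higher and 2 lower. Beside the calls above, these were Gmnn, Dbf4, Pcna and Rrm2 (higher) and Mcm5 (lower). The shares of those 2706 genes were 27.5% and 18.8%. The 60 reads are summed over the 6 libraries. The metaphase II libraries were deeper, with 164972 to 331304 reads against 94309 and 107251 in WT_FGO. Genes high at metaphase II therefore pass this filter more easily, and its shares and medians may lean towards a rise. Over the whole list, 16 members had a change above 0 and 25 below, and the median change was -0.44, the same to 2 decimals as the median of all tested genes (-0.44). Between these extremes most members could not be told from no change at this depth, since the median width of the 95% intervals was 3.17 on the log2 scale. The calls need all 3 groups to estimate the spread: without WT_MII_1, Treat_MII_1 or Treat_MII_2 no gene of the table was called, 5 members were called without WT_MII_2, and Mcm4 alone was called when only the compared groups were fitted. With every library centred on its median ratio, which moves the median of all tested genes from -0.44 to 0.02, 10 members were higher and 0 lower, against 5.01% and 2.02% of tested genes (758 and 305 genes, where the values as deposited gave 555 and 468). With only 2 libraries a group, an exact permutation test of a single gene cannot go below p = 0.3333.

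**Figure D1:**
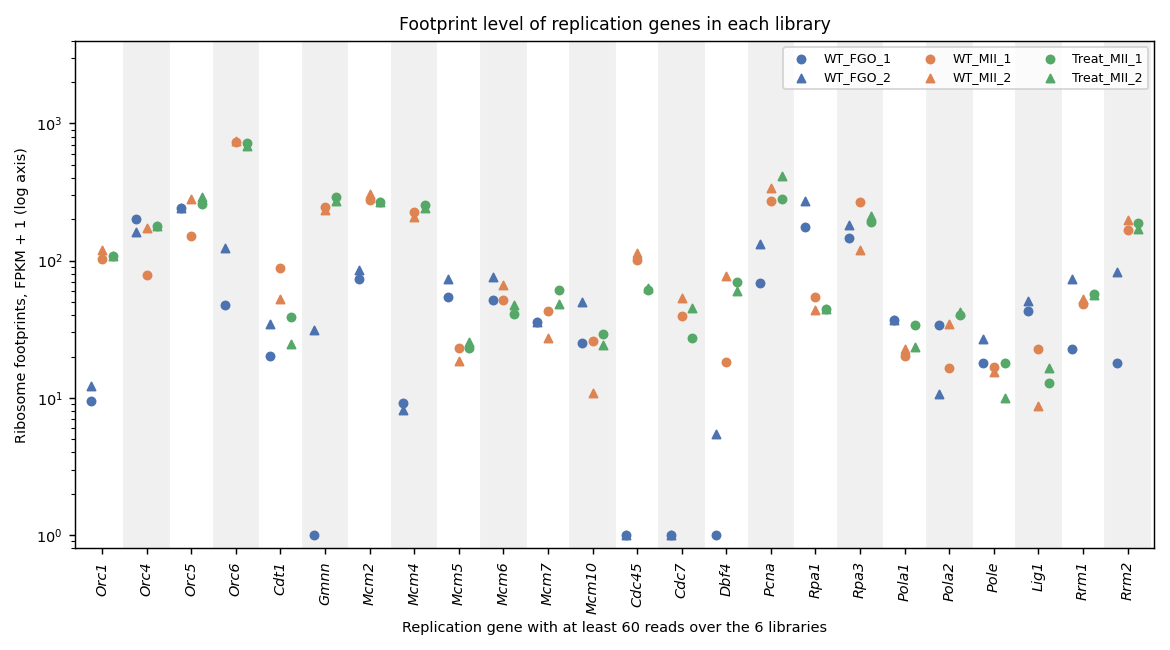
Footprint level (FPKM + 1, log axis) of the 24 members with at least 60 reads, 1 point per library, circles for the first and triangles for the second library of each group (WT_FGO blue, WT_MII orange, Treat_MII green). Orc1, Orc6, Mcm2, Mcm4, Cdc45 and Cdc7 have both metaphase II groups above both WT_FGO libraries, Rpa1 has them below, and the green points lie close to the orange ones for most genes.

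The origin recognition complex marks the sites where replication can start, and its subunits did not move together. Orc6 (chromosome 8, 85299632 to 85308278, GRCm38), the subunit that is most loosely held in the complex, was at 46.1 and 122 FPKM in WT_FGO, at 731 and 744 in WT_MII and at 722 and 678 in Treat_MII. The metaphase II libraries lay far above both WT_FGO libraries and close to each other. The WT_MII mean was 738 ± 8.77 FPKM (SD, n = 2) against 83.9 ± 53.4, which is 8.80-fold higher, and the fitted change was 3.28 ± 0.47 (SE) with an adjusted p of 0.0159 in limma. With no filter on low values the adjusted p was 0.0724 and the call was lost. In WT_MII its level stood above that of 99.1% of tested genes, the highest of the members. In WT_FGO_2, the library with the higher Orc6 value of its group, granulosa and cumulus markers were also higher. Without WT_FGO_2 the change was 3.97, and without WT_FGO_1 it was 2.59.

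Orc1 (chromosome 4, 108579423 to 108614833), the ATPase subunit that in dividing cells comes and goes with the cycle, was at 8.42 and 11.1 FPKM in WT_FGO, at 101 and 119 in WT_MII and at 108 and 107 in Treat_MII. The WT_FGO values rest on 2 and 3 reads and the WT_MII values on 42 and 69, and WT_FGO did not overlap either metaphase II group. Per read of the library the WT_MII pair stood 11.3 times above the WT_FGO pair, with an exact counting interval of 4.70 to 35.5, and the fitted change was 3.37 ± 0.44 (adjusted p = 0.0123, limma). Intervals of this kind cover counting error only, as PCR copies are not independent molecules.

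Orc4 and Orc5, further ATPase-fold subunits of the ring, already carried footprints at the germinal vesicle stage. Orc4 was at 199 and 161 FPKM in WT_FGO, 77.2 and 172 in WT_MII and 176 and 177 in Treat_MII. Orc5 was at 240 in each WT_FGO library, 151 and 278 in WT_MII and 258 and 291 in Treat_MII. In both genes the WT_FGO values lay inside the range of WT_MII or overlapped it, and the changes were -0.63 (adjusted p = 0.490) and -0.23 (adjusted p = 0.762). Orc2 and Orc3 had few reads: 10 and 15 over the WT_FGO pair against 1 and 4 over the WT_MII pair. The limma test did not call them. As a share of the summed FPKM of the complex, Orc6 went from 8.47% and 20.02% in WT_FGO to 68.8% and 56.3% in WT_MII and 56.4% and 53.3% in Treat_MII. Orc5, the leading subunit in WT_FGO with 44.2% and 39.4%, made up 14.2% and 21.1% in WT_MII.

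Of the factors that load the helicase or prevent it, none was called by limma on log2(FPKM + 1). Cdt1, the loader that licensing turns on, was at 19.0 and 33.5 FPKM in WT_FGO, 87.1 and 51.8 in WT_MII and 37.9 and 23.9 in Treat_MII. The WT_MII pair lay above both other groups, on 24 and 20 reads, and the maturation change was 1.38 (adjusted p = 0.234). Cdc6, its partner in loading, had 5 reads over the WT_FGO pair and 18 over the WT_MII pair. Gmnn encodes geminin, the inhibitor of CDT1. It was listed at 0 in WT_FGO_1 and at 30.2 FPKM in WT_FGO_2, against 245 and 231 in WT_MII and 288 and 270 in Treat_MII. Its WT_FGO values rest on 0 and 2 reads, and per read of the library WT_MII was 14.8 times higher (counting interval 3.91 to 125). WT_FGO lay below both metaphase II groups, yet the gap between the WT_FGO libraries on the log scale left the fitted change at 5.42 ± 1.47 with an adjusted p of 0.0901. That change moved with 1 library: it was 2.94 without WT_FGO_1 and 7.90 without WT_FGO_2, and 7.10 with a pseudocount of 0.1. Gmnn was called higher by voom on the recovered reads, among genes with at least 60 reads and with median centring (adjusted p = 0.0391). Granulosa and cumulus markers were higher in the WT_FGO library in which Gmnn had reads, but these reads number only 2.

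The helicase is a ring of 6 MCM proteins in equal number, and here too the subunits parted. Mcm4 (chromosome 16, 15623897 to 15637400) was at 8.17 and 7.18 FPKM in WT_FGO, at 226 and 207 in WT_MII and at 252 and 239 in Treat_MII. Behind these stand 2 reads in each WT_FGO library and 97 to 217 in the metaphase II libraries, with no overlap. Per read of the library the WT_MII pair was 28.1 times higher (counting interval 10.8 to 104), and the fitted change of 4.65 ± 0.38 had the smallest adjusted p of the members, 0.00292 in limma.

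Mcm2 (chromosome 6, 88883474 to 88898780), the subunit that also holds histones, was at 72.7 and 84.1 FPKM in WT_FGO, at 273 and 305 in WT_MII and at 268 and 264 in Treat_MII. Both metaphase II groups lay above both WT_FGO libraries, with a spread within each group that was small against the gap. The WT_MII mean of 289 ± 22.1 FPKM (SD, n = 2) was 3.69-fold above the WT_FGO mean of 78.4 ± 8.07, a change of 1.87 ± 0.30 (adjusted p = 0.0232, limma).

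No other MCM subunit was called. Mcm5 was at 53.0 and 71.98 FPKM in WT_FGO, 22.0 and 17.7 in WT_MII and 21.9 and 24.7 in Treat_MII. WT_MII and WT_FGO did not overlap, but on 8 and 9 reads in WT_MII the change of -1.60 ± 0.51 had an adjusted p of 0.132. Mcm6 was at 51.0 and 74.7 FPKM in WT_FGO, 51.0 and 65.9 in WT_MII and 39.9 and 46.5 in Treat_MII, so that WT_FGO and WT_MII overlapped. Mcm7 was at 34.4 and 34.6 FPKM in WT_FGO, 42.2 and 26.1 in WT_MII and 60.2 and 47.1 in Treat_MII. Of its coding words of 28 bases, 54.9% also occur in transcripts of another gene, so its reads may be split between copies and its level is uncertain. The maturation changes of Mcm6 and Mcm7 were -0.09 and -0.05, and their sign turned under another centring of the libraries. Mcm3 had 18 reads over the WT_FGO pair and 16 over the deeper WT_MII pair. Its mean went from 37.1 to 16.7 FPKM without overlap, and the change of -1.08 had an adjusted p of 0.429 in limma.

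Summed over the 6 subunits, MCM footprints stood at 263 and 303 FPKM in WT_FGO, at 632 and 637 in WT_MII and at 658 and 629 in Treat_MII. Mcm2 and Mcm4 together made up 30.8% and 30.1% of this sum in WT_FGO, 79.0% and 80.3% in WT_MII and 79.0% and 80.0% in Treat_MII. The proteins are used in equal number, and the footprints were far from equal in every library. In WT_FGO, Mcm2 alone made up 27.7% of the sum in each library. The sum includes Mcm7, whose level is uncertain. Mcm4 was the least represented subunit in both WT_FGO libraries, with 3.11% and 2.37%, and reached 35.8% and 32.5% in WT_MII. These shares carry no test.

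**Figure D2:**
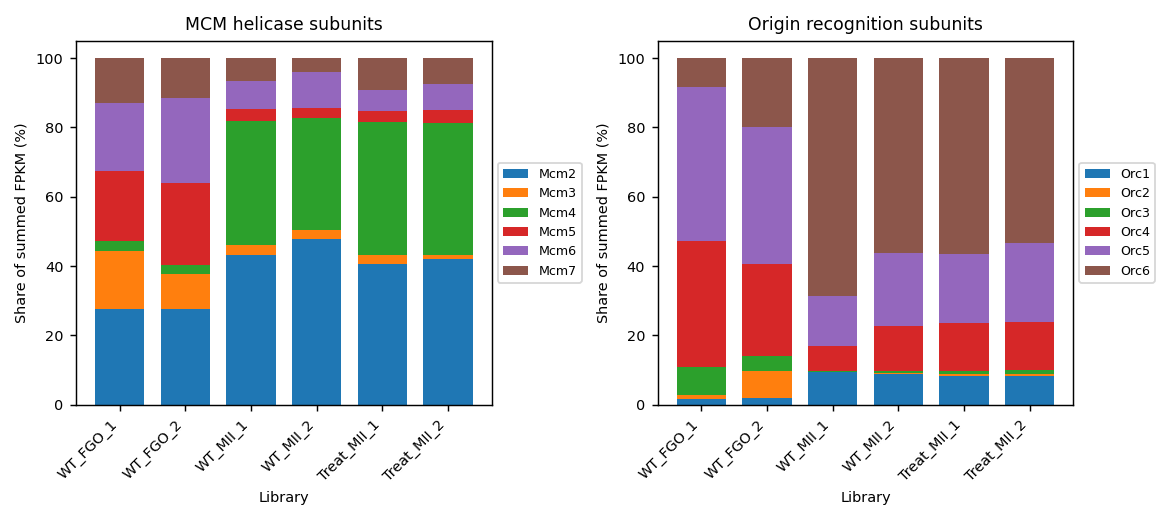
Share of the summed FPKM (%) of each subunit of the MCM helicase (left) and of the origin recognition complex (right) in each of the 6 libraries. Mcm2 and Mcm4 grow from 30.1% to 30.8% of the MCM sum in WT_FGO to 79.0% to 80.3% in the metaphase II libraries, and Orc6 grows from 8.47% and 20.02% of the ORC sum to between 53.3% and 68.8%.

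Of the genes that turn the loaded helicase on, Cdc45 and Cdc7 went from no reads to clear levels. Cdc45 (chromosome 16, 18780447 to 18811987), a core part of the moving helicase, was listed at 0 in both WT_FGO libraries. It was at 100 and 112 FPKM in WT_MII, on 28 and 44 reads, and at 60.4 and 62.0 in Treat_MII. Against a floor of 3 reads per library, the WT_MII mean of 106 ± 8.67 FPKM (SD, n = 2) was at least 6.03-fold higher, and the adjusted p was 0.00324 in limma. The fitted log2 change against a group at 0 depends on the pseudocount and is not given as a size.

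Cdc7 (chromosome 5, 106964322 to 106984432), the catalytic subunit of the kinase, was likewise listed at 0 in both WT_FGO libraries. It was at 38.7 and 52.7 FPKM in WT_MII and at 26.2 and 44.2 in Treat_MII. The WT_MII mean was at least 2.64-fold above the floor of WT_FGO, with an adjusted p of 0.0116. Dbf4, the subunit that activates CDC7, was at 0 and 4.46 FPKM in WT_FGO, 17.4 and 76.6 in WT_MII and 69.3 and 59.0 in Treat_MII. The reads were 0 and 1 in WT_FGO and 6 and 37 in WT_MII. WT_FGO lay below WT_MII in every library, per read of the library WT_MII was 21.9 times higher (counting interval 3.73 to 885), and the adjusted p was 0.0901.

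Mcm10, which acts when the helicase is set in motion, was at 23.96 and 49.2 FPKM in WT_FGO, 25.1 and 9.79 in WT_MII and 28.4 and 23.2 in Treat_MII. Its groups overlapped and its change was -1.08 (adjusted p = 0.481). The genes of the GINS complex, the partner of CDC45, had few reads: 46 over the 4 genes in WT_FGO, from 20 and 26 per library, and 4 and 12 in the WT_MII libraries. Their summed level was 359 and 386 FPKM in WT_FGO and 38.1 and 86.8 in WT_MII. By limma on log2(FPKM + 1) none of the 4 was called, and all 4 had a change below 0, while voom on the recovered reads called Gins4 lower. Gins4 had 13 of its 23 reads in WT_FGO_2, the library with the higher granulosa and cumulus markers.

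**Figure D3:**
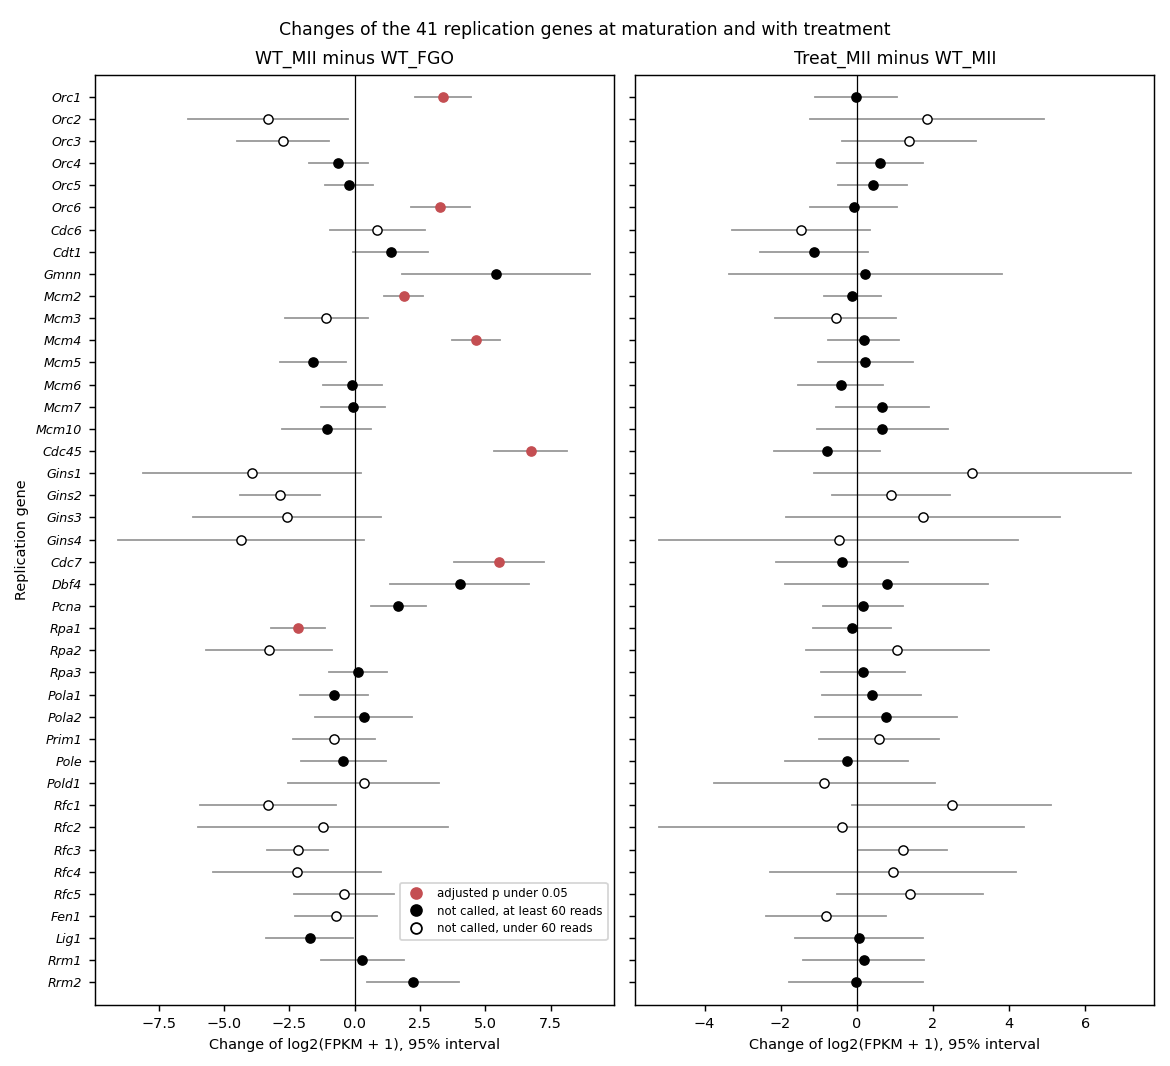
Fitted change of log2(FPKM + 1) of all 41 members with its 95% interval at maturation (WT_MII minus WT_FGO, left) and with treatment (Treat_MII minus WT_MII, right). Red points are the 7 members with an adjusted p under 0.05, black points other members with at least 60 reads and open points members with fewer. Red points occur only in the left panel, and the right panel holds none.

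At the fork, the single-strand binding complex RPA and the clamp parted as well. Rpa1 (chromosome 11, 75298166 to 75348324) was at 176 and 270 FPKM in WT_FGO, at 53.3 and 42.6 in WT_MII and at 43.7 and 43.2 in Treat_MII. Both metaphase II groups lay below both WT_FGO libraries. The fall from 223 to 48.0 FPKM was 4.65-fold, with a change of -2.17 ± 0.42 (adjusted p = 0.0384, limma). With the replicate number as a block the adjusted p was 0.0697, and with median centring the change was -1.71 with an adjusted p of 0.0716. Rpa1 was higher in WT_FGO_2, the library with the higher granulosa and cumulus markers. Its change was -1.86 without WT_FGO_2 and -2.48 without WT_FGO_1. Rpa2, the middle subunit, had 14 and 15 reads in WT_FGO and 7 and 1 in WT_MII, with a change of -3.28 that was not called. Rpa3, the smallest subunit, was at 146 and 180 FPKM in WT_FGO, 267 and 119 in WT_MII and 191 and 210 in Treat_MII, so that its groups overlapped. Its share of RPA footprints was 28.9% in each WT_FGO library and 71.7% and 71.3% in WT_MII. Of the coding words of Rpa3, 41.9% are shared with other transcripts.

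Pcna, the sliding clamp, was at 67.7 and 131 FPKM in WT_FGO, 271 and 337 in WT_MII and 281 and 412 in Treat_MII. WT_MII and WT_FGO did not overlap and the mean was 3.06-fold higher in WT_MII, but the change of 1.67 ± 0.43 had an adjusted p of 0.0795. Its coding words recur in other transcripts, chiefly a processed copy, for 77.2% of them, which makes its level uncertain. The 5 genes of the clamp loader had few reads, 21 and 27 in the WT_FGO libraries and 8 and 12 in WT_MII. By limma on log2(FPKM + 1) none was called, and all 5 had a change below 0, from -3.32 to -0.40, while voom called Rfc1 and Rfc3 lower.

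None of the polymerase genes was called. Pola1, the catalytic subunit of the polymerase that starts strands, was at 36.2 and 36.1 FPKM in WT_FGO, 19.3 and 21.7 in WT_MII and 33.0 and 22.3 in Treat_MII. Pola2, its accessory subunit, was at 32.8 and 9.62 FPKM in WT_FGO, 15.6 and 33.5 in WT_MII and 38.9 and 41.2 in Treat_MII. Pole, the catalytic subunit of the leading-strand polymerase, was at 16.9 and 25.7 FPKM in WT_FGO, 15.8 and 14.4 in WT_MII and 17.1 and 8.94 in Treat_MII. WT_FGO lay above WT_MII for Pola1 and Pole and overlapped it for Pola2. The changes at maturation were -0.79, 0.34 and -0.44, with adjusted p from 0.488 to 0.846. The primase gene Prim1 and the lagging-strand polymerase gene Pold1 had 7 and 10 reads over the WT_FGO pair and 9 and 18 over the WT_MII pair. The WT_MII pair was deeper, and in mean FPKM Prim1 went from 27.6 to 16.9 and Pold1 from 15.8 to 13.1. Their fitted changes were -0.80 and 0.34.

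Lig1, the ligase that joins Okazaki fragments, was at 41.6 and 49.9 FPKM in WT_FGO, 21.6 and 7.73 in WT_MII and 11.8 and 15.5 in Treat_MII. WT_MII and WT_FGO did not overlap, and the change of -1.73 had an adjusted p of 0.208. Fen1, the flap nuclease of the same step, had 8 and 10 reads over the WT_FGO and WT_MII pairs. Rrm1 and Rrm2 are the subunits of ribonucleotide reductase, which makes the DNA precursors. Rrm2, the small subunit, was at 17.0 and 82.0 FPKM in WT_FGO, 165 and 197 in WT_MII and 188 and 168 in Treat_MII. WT_MII and WT_FGO did not overlap, and the change of 2.23 ± 0.72 (adjusted p = 0.135) was 1.13 without WT_FGO_1 and 3.34 without WT_FGO_2. Rrm1 was at 21.6 and 72.2 FPKM in WT_FGO, 46.9 and 51.2 in WT_MII and 56.6 and 54.7 in Treat_MII, with overlap. Both genes were higher in WT_FGO_2, where the 14 granulosa and cumulus markers summed to 2206 FPKM, against 224 in WT_FGO_1. Of the coding words of Rrm2, 32.55% are shared with other transcripts. That share was 39.8% in Rfc5, 29.8% in Cdc6, 15.3% in Gmnn, 9.41% in Mcm4 and 5.05% in Orc1. In members for which no share is given it was at most 4.92%.

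By overlap alone, 12 members had both WT_MII libraries above both WT_FGO libraries (29.3%, against 15.3% of tested genes) and 16 had both below (39.0%, against 25.8%). Most tested genes had fewer reads than the members, and values tied at 0 cannot separate, so these shares are not like for like. Many members had few reads. At or under 3 reads in both libraries of a group were 10 members in WT_FGO (Orc1, Cdc6, Gmnn, Mcm4, Cdc45, Gins3, Cdc7, Dbf4, Rfc4 and Rfc5), 7 in WT_MII (Orc2, Orc3, Gins2, Gins3, Gins4, Rfc2 and Rfc4) and 4 in Treat_MII (Orc2, Gins4, Rfc2 and Rfc4). The 17 members under 60 reads, which have 6 to 58, are Orc2, Orc3, Cdc6, Mcm3, the 4 GINS genes, Rpa2, Prim1, Pold1, the 5 RFC genes and Fen1. Their maturation changes ran from -4.35 to 0.86, with a median of -2.19 and adjusted p from 0.0526 to 0.919. The median of the 24 members with at least 60 reads was 0.32, against 0.23 for the 2706 tested genes with as many. Reads were summed over all libraries, so genes high in the deeper metaphase II libraries reach 60 more easily. How far this moves the medians was not tested. When each value was weighted by the reads behind it (limma voom on the recovered reads), 9 members were called higher (Gmnn, Dbf4 and Rrm2 beside the 6) against 5.54% of genes, and 8 were called lower (Orc2, Orc3, Gins4, Rpa1, Rpa2, Rfc1, Rfc3 and Lig1) against 10.9%. Without WT_FGO_2, the library with the granulosa and cumulus markers, 8 members were called higher and 2 lower by the first test, against 6.63% and 6.26% of tested genes.

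Treatment during maturation called no member in either direction, and no gene of the table (0% called, 0 of 15127). The smallest adjusted p of the members was 0.843, and at an unadjusted p under 0.05 there were 1 member higher (2.44%, against 3.81% of tested genes) and 0 lower (against 2.02%). That member is Rfc3, named after its values were seen. Its reads numbered 4 in each control library and 18 and 12 in the treated ones, and its change was 1.20 with a 95% interval of 0.03 to 2.38. Weighted by reads, voom called 0 members, against 0.449% of genes higher and 0.691% lower, and with no filter on low values limma called 27 genes higher, none of them a member. The 14 members with both treated libraries above both controls (34.1%, against 16.2% of tested genes) and the 7 with both below (17.1%, against 15.6%) were separations that the test did not call. The members had more reads than most genes (median 76 against 13), and values tied at 0 cannot separate, so these shares are not like for like. The median member change was 0.18, against 0 for all tested genes. With at least 60 reads it was 0.17 for 24 members, against 0.055 for 2706 genes.

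The members that rose at maturation had similar levels in treated and control oocytes, within intervals that are wide. Their treatment changes were -0.03 for Orc1 (95% interval -1.11 to 1.05), -0.08 for Orc6 (-1.22 to 1.07), -0.12 for Mcm2 (-0.86 to 0.62) and 0.18 for Mcm4 (-0.74 to 1.11). Those of Cdc45 and Cdc7 were -0.78 (-2.18 to 0.62) and -0.40 (-2.16 to 1.36). Cdc45 was lower in both treated libraries than in both controls, at 61.2 ± 1.08 FPKM (SD, n = 2) against 106 ± 8.67, with an adjusted p of 0.931. Per read of the library its treated pair stood at 0.57 times the control pair (counting interval 0.40 to 0.81). Rpa1 changed by -0.13 (-1.16 to 0.90). Only for Mcm2 did the whole interval lie within 1 log2 unit of 0, and for the other 40 a 2-fold difference between treated and control oocytes lay within the interval in at least 1 direction. Among the 24 members with at least 60 reads the largest drop was that of Cdt1, -1.13 (-2.56 to 0.29), from 87.1 and 51.8 FPKM to 37.9 and 23.9, and the largest rises were those of Pola2 and Dbf4, each 0.78. Per read, Cdt1 stood at 0.47 times the control pair (counting interval 0.29 to 0.77) and Mcm7 at 1.65 times (1.05 to 2.66). Of the members under 60 reads, Rfc1 stood at 4.40 times (1.53 to 17.3), on 27 treated and 4 control reads. Rfc3 stood at 2.45 times (1.10 to 6.18) and Cdc6 at 0.36 times (0.15 to 0.83). Such intervals hold counting error only and are not adjusted for the number of genes.

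Treated oocytes were also set against WT_FGO, which shares the WT_FGO libraries with the maturation comparison, so the results are given side by side and not as a repeat. The same 6 members were higher (14.6%, against 2.86% of tested genes) and Rpa1 was lower (2.44%, against 1%). With the replicate number as a block Mcm2 (adjusted p = 0.0733) and Rpa1 (0.0814) lost their calls here, and with median centring Rpa1 did (0.0619). With no filter on low values Orc6 lost its call (0.0819). The changes in treated and in control oocytes were 3.34 and 3.37 for Orc1, 3.20 and 3.28 for Orc6, 1.75 and 1.87 for Mcm2, 4.83 and 4.65 for Mcm4, and -2.30 and -2.17 for Rpa1. Cdc45 and Cdc7 in treated oocytes stood at least 3.48-fold and 2.03-fold above the WT_FGO floor. By overlap, 15 members were higher (36.6%, against 16.6% of tested genes) and 16 were lower (39%, against 28.9%). These shares, too, compare members with genes that mostly had fewer reads.

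The polyadenylation element was not used to choose the members. Of the 6 members that rose, 5 carried it in the last 100 bases, and Cdc7 did not. Rpa1, which fell, did not carry it. Among all tested genes it was found in 42.9% of those called higher (223 of 520) and in 10.6% of those called lower (42 of 398), so the element was more common among genes called higher in the whole table and not in these members alone. The median maturation change was 0.14 for the 17 members with the element and -1.08 for the 23 without, against 0.08 and -0.55 for tested genes. With at least 60 reads, the medians were 1.62 (14 members) and 0.10 (10 members), against 1.56 and -0.19. The same filter favours genes high at metaphase II, so these medians may be shifted upwards, which was not tested. The element did not sort the members without exception: of the 17 that carry it, 9 had a change above 0 and 8 below. The 8 were Gins3 (-2.58), Rfc3 (-2.19), Rfc2 (-1.21), Mcm10 (-1.08), Pola1 (-0.79), Orc4 (-0.63), Pole (-0.44) and Mcm7 (-0.05). The treatment change had a median of 0.18 with the element and 0.23 without.

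**Figure D4:**
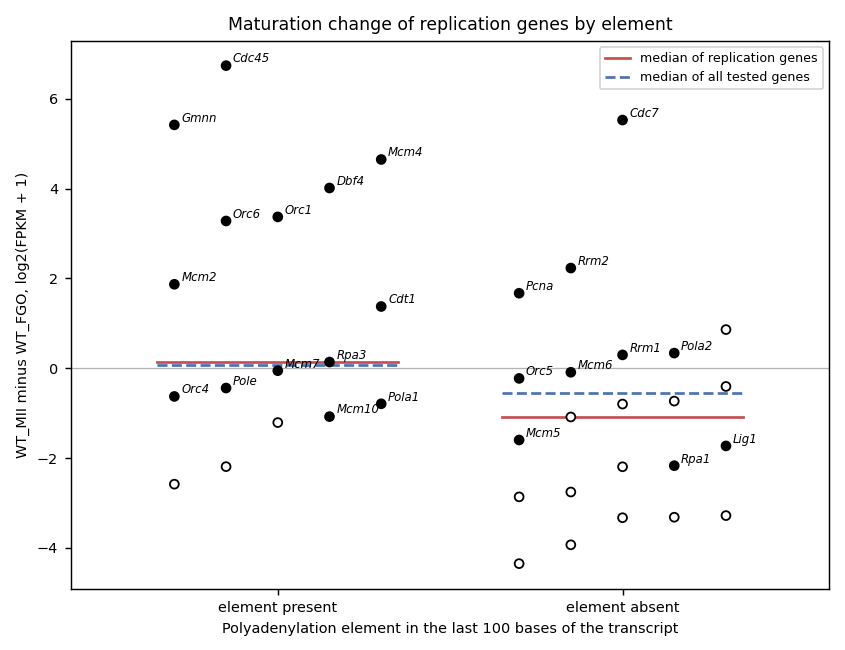
Change of log2(FPKM + 1) from WT_FGO to WT_MII for the 40 members with a window, split by whether the last 100 bases of the transcript hold TTTTAT or TTTTAAT. Filled points have at least 60 reads, open points fewer, and lines are the medians of the members (red) and of all tested genes (dashed blue). Points are spread sideways only so that they can be seen. Orc1, Orc6, Mcm2, Mcm4 and Cdc45 lie on the left, Cdc7 on the right.

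Since the treatment binds G-quadruplexes, a G-quadruplex motif was searched on the sense strand, written as G runs (4 of them, 3 or more letters long) that are spaced by 1 to 7 bases. It was found in the 5′-UTR of Gmnn, Mcm10 and Rfc2 (3 of 41 members, 7.32%, against 5.79% of genes), in the coding sequence of Mcm5 (2.44%, against 3.67%) and in the 3′-UTR of Gins2 (2.44%, against 9.13%). The treatment changes of these genes were 0.23 for Gmnn, 0.67 for Mcm10, -0.40 for Rfc2, 0.23 for Mcm5 and 0.90 for Gins2, and none was called. The absence of the letters in other members says nothing of other structures.

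Other genes of replication, nucleotide supply and chromatin assembly were taken as a list of 48, of which 46 were tested. At maturation 7 were called higher (15.2%, against 3.67% of tested genes) and 3 lower (6.52%, against 3.09%), with a median change of 0.53 (against -0.44). Those with the smallest adjusted p were Top1, Rrm2b, Asf1b, Tyms and Mtbp. Top1, the topoisomerase that relieves twist ahead of the fork, was at 18.4 and 16.2 FPKM in WT_FGO, 361 and 416 in WT_MII and 376 and 350 in Treat_MII. Rrm2b, the alternative small subunit of ribonucleotide reductase, was at 30.04 and 17.6 FPKM in WT_FGO, 338 and 405 in WT_MII and 496 and 356 in Treat_MII. Both were far above their WT_FGO values in all 4 metaphase II libraries, with changes of 4.41 and 3.95 (adjusted p = 0.00233 and 0.00572, limma). Asf1b, a histone chaperone, went from 87.5 and 154 FPKM to 600 and 515, and Mtbp, a partner of the origin-firing factor Ticrr, from 7.84 and 10.3 to 78.5 and 72.1. Tyms, which makes thymidylate, was at 40.7 and 44.7 FPKM in WT_FGO and was listed at 0 in both WT_MII libraries, at least 2.86-fold lower. Treatment called 0 of the 46, and in treated oocytes against WT_FGO 6 were higher (Asf1a among them; 13%, against 2.86%) and 0 lower (against 1%).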

How the data were processed

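Ribosome footprints were measured in 6 libraries. The authors deposited FPKM per gene and library. The submitters' processing notes name cutadapt 1.14, Bowtie2 2.2.2, STAR 2.5.3a and the mm10 build; how reads were counted, and whether molecular identifiers were used, is not given in the sources used here. A table of 22416 genes remained after 26 entries with a repeated name were left out. Reads were recovered as FPKM times the GENCODE release 21 union coding length over a constant per library. This gave whole reads for 97.9% of genes with a coding length and a value above 0 (tolerance 0.02 reads). The reads per library were 94309 and 107251 (WT_FGO), 164972 and 230907 (WT_MII), and 331304 and 275604 (Treat_MII). Low depth in WT_FGO limits precision there.

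Groups came from the sample titles. Genes averaging 1 FPKM or more were fitted on log2(FPKM + 1) with limma 3.58.1 (R 4.3.3; lmFit, eBayes with trend, 3 groups, no covariate), with Benjamini-Hochberg adjustment over 15127 genes. The fit was also run on simulated reads, with large changes placed only in genes with at least 60 reads. That run says little about members with few reads or smaller changes, and its outcome is not used here. Deviations of same-numbered libraries correlated at 0.0176 to 0.0342, so numbers were not taken as pairs. Members called in any contrast or with at least 60 reads have every library given, the others ranges and counts. Up to 5 called genes per contrast were named from the longer replication list. Members and lists were chosen with earlier results of these data known. Alternatives were other pseudocounts, filters, scalings, variance models, voom on reads, a replicate block and leaving out each library.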

Additional observations from a re-analysis of the deposited data

How the results depend on the processing

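Depth in WT_FGO, where 10 members lay at or under 3 reads in both libraries, and the 2 libraries a group limit these results, and the cause of the shifts below was not tested. The members called at maturation numbered 12 among genes with at least 60 reads (a filter chosen after seeing the data), 3 without the variance trend (Mcm4, Cdc45 and Cdc7), 1 with only the compared groups fitted (Mcm4) and 17 with voom, against 7, and for treated against fully grown oocytes they numbered 11, 1, 3 and 14, against 7. Of the genes with at least 60 reads, 27.5% were called higher and 18.8% lower at maturation, and 27.1% and 15.3% in treated against fully grown oocytes. Their reads were summed over libraries of unequal depth, which favours genes high at metaphase II. The other replication genes called at maturation numbered 3, 1 and 19 without the trend, with only the compared groups and with voom, against 10. In treated against fully grown oocytes they numbered 15 with at least 60 reads, 3 without a filter, 0 without the trend, 2 with only the compared groups and 17 with voom, against 6. No alternative called a member with treatment. Leaving out 1 library gave 0 to 10 members and 0 to 14 other genes at maturation, and 0 to 9 and 0 to 13 in treated against fully grown oocytes. No gene was called at maturation without WT_MII_1 or either Treat_MII library, and the lone library left in a group was then assumed to vary like the others.

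The median member change at maturation (-0.44) was 0.02378 with median centring and 0.3182 with at least 60 reads. With treatment (0.18) it was 0.1086 with a common total and 0.06635 with median centring, and 0.08437 to 0.2741 without 1 library. In treated against fully grown oocytes (-0.41) it was 0.5447 with at least 60 reads, -0.05748 with median centring and 0.1398 with quantile normalization, and -0.4063 to -0.09982 without 1 library. At maturation it was -0.6406 to -0.3793 without 1 library.

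The maturation change turned its sign with median centring for Orc5 (0.2383), Mcm6 (0.3751), Mcm7 (0.41) and Pole (0.02378), with quantile normalization for Mcm6 (0.2537), Mcm7 (0.4573) and Pole (0.1654), with a common total for Mcm7 (0.008259) and with voom for Rpa3 (-0.004858). The treatment change of Lig1 turned with median centring (-0.06218) and a common total (-0.01694). None of these was called. Without 1 library the maturation change spanned 0 for Orc5 (-0.6633 to 0.2123), Mcm6 (-0.3599 to 0.1827), Mcm7 (-0.3893 to 0.2818), Pola2 (-0.4972 to 1.174), Rpa3 (-0.4387 to 0.7178) and Rrm1 (-0.5494 to 1.146). The treatment change did so for Orc1 (-0.1447 to 0.08437), Orc5 (-0.02331 to 0.8523), Dbf4 (-0.2575 to 1.82), Pcna (-0.1032 to 0.4466), Rpa1 (-0.2891 to 0.0288), Rpa3 (-0.4134 to 0.7431), Pole (-0.6967 to 0.1649), Lig1 (-0.6346 to 0.7401) and Rrm2 (-0.1485 to 0.1104). The 7 members called at maturation kept their direction without any 1 library: Orc1 3.19 to 3.55, Orc6 2.59 to 3.97, Mcm2 1.77 to 1.98, Mcm4 4.57 to 4.73 and Rpa1 -2.48 to -1.86. Cdc45 and Cdc7, at 0 in WT_FGO, have no such size: their fitted values of 6.74 and 5.53 became 10.05 and 8.82 with a pseudocount of 0.1.

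The check of deviations gave no sign that same-numbered libraries were pairs. With 2 libraries a group and few reads per gene, it cannot exclude that they were. With the replicate number as a block, 6 members were called at maturation (Rpa1 lost, adjusted p 0.0697 in limma), 0 with treatment and 5 in treated against fully grown oocytes (Mcm2 and Rpa1 lost).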
